A study of Mus musculus with 15 samples.

Results

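Genes that carry newly made proteins into the endoplasmic reticulum (ER) and from there to the Golgi were followed in livers of mice that make a human secretory protein. The members were 48 named genes, and each was measured by the array probe sets annotated to its symbol or to an older alias. Of the 48, 43 had a probe set annotated to that gene alone and were tested among 12393 genes. A further 3 (Sec61g, Srp54a and Tmed2) had only probe sets shared with other genes, and 2 (Srp72 and Sec24a) were not analysed here. The 43 tested members comprised 4 of 6 signal recognition particle genes, 8 of 9 translocon genes, all 5 signal peptidase genes, 10 of 11 p24 and cargo receptor genes, 9 of 10 COPII genes and all 7 COPI genes.

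Liver RNA from 15 mice, labelled as adult males 3 months old, was hybridised to 1 array each, with 3 biological replicates in each of 5 groups. Z-on mice expressed the mutant ATZ form of human alpha1-antitrypsin and drank no doxycycline. Z-off mice carried the same transgene and received doxycycline at 40 µg/mL in drinking water from conception, which keeps the transgene off. M-on mice expressed the wild type form without doxycycline, and M-off mice carried that transgene with the same doxycycline treatment. Littermates had neither human protein nor doxycycline. Expression was inducible and specific to hepatocytes, from a promoter the labels do not name. Each on-off comparison also differs by doxycycline, and the effects of the drug and of the transgene product cannot be told apart within a line.

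The signal recognition particle binds a signal sequence as it leaves the ribosome and docks at its receptor on the ER, where the Sec61 channel and its partners, among them the TRAP complex encoded by the Ssr genes, let the chain in. Signal peptidase then removes the signal sequence. Folded cargo leaves the ER in COPII vesicles, often with the help of p24 proteins and lectin receptors, and COPI vesicles return escaped ER proteins and receptors from the Golgi. Hepatocytes secrete most plasma proteins along this route, alpha1-antitrypsin among them. The Z form polymerises and is largely retained in the ER.

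Values are the deposited linear probe set signals, whose 2% trimmed mean lay between 150.06 and 150.08 on every array. Changes are differences of group means of log2(signal + 16), and a gene is called when limma's adjusted p is under 0.05 over all 12393 genes. The groups differed beyond the members: the median signal of all probe sets was 47.8 to 52.5 on Z-on and 43.9 to 54.9 on M-on arrays, against 32.0 to 32.2 on Z-off, 30.4 to 31.3 on M-off and 42.3 to 44.9 on littermate arrays. The median gene shifted by 0.25 in Z-on against Z-off and by 0.29 in M-on against M-off, and by 0.05 and 0.10 after quantile normalization of the arrays. The poly-A control probe sets had medians of 2.0 to 2.3 on Z-on and 3.7 to 5.2 on M-on arrays, against 45.9 to 48.3 on Z-off, 42.6 to 57.9 on M-off and 33.8 to 37.6 on littermate arrays. The 18S rRNA 5′ probe set read 1879.9 to 2666 on Z-on and 1830 to 2680.7 on M-on arrays, against 166 to 568 on Z-off, 154 to 442 on M-off and 75 to 286 on littermate arrays. Both of these control readings separated all Z-on and M-on arrays from all other arrays. What lies behind them and the effects of the transgene products therefore cannot be told apart. The part of these array differences in the results was not tested.

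The M-on arrays stood apart in 2 ways. Arrays 1 and 2 of that group went against their male label, with signals of 1149.2 and 226 for Xist, which is expressed from the inactive X of females, and of 0.4 and 1.3 for the Y-linked Eif2s3y. All other arrays read at most 74.3 for Xist. For Eif2s3y, M-on 3 read 42.1 and all arrays outside the M-on group read at least 105. Correlations between arrays of a group were 0.943 to 0.969 in M-on and 0.968 to 0.986 in the other 4 groups. The calls that change without arrays 1 and 2 are given with the M-line results. The 7 hepatocyte markers summed to 44368.6 to 48051.1 in Z-on and 44686.2 to 54412.3 in M-on livers, against 50447.9 to 58906.6 in Z-off, 51996.9 to 57811.6 in M-off and 76551.5 to 90168.6 in littermate livers. In whole liver, fewer cells of a type and less RNA per cell cannot be told apart. The 5 Kupffer cell markers summed to 1335.7 to 1535.6 in M-on livers, against 605 to 694 in M-off livers, and all 5 were called higher; in the Z line none of the 5 was called. Of the endothelial markers 1 of 4 was called higher in the Z line and 3 of 4 in the M line, of the stellate markers 3 of 5 and 2 of 5, and of the blood cell markers 1 of 4 and 2 of 4. The endothelial marker Kdr changed by 0.94 in the Z line, and none of the 7 hepatocyte markers was called in either line. Of all genes, 31.6% were called higher in the Z line and 37.9% in the M line. The part of these marker differences in the results of either line was not tested.

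With the Z transgene on, the calls ran mostly upwards among the members, as they did among all genes. In Z-on against Z-off livers 10 of 43 members were called higher and 4 lower, while 31.6% of all genes were called higher and 7.46% lower. The median change was 0.13 over the members tested and 0.25 over all genes. The count of 14 calls was 9 without array Z-on 1, Z-off 2 or Z-off 3. After quantile normalization 12 members were called higher and 1 lower, beside 1911 genes higher and 1295 lower of all 12393.

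With the M transgene on, the calls ran mostly downwards. In M-on against M-off livers 6 of 43 members were called higher and 17 lower, while 37.9% of all genes were called higher and 12.4% lower. The median change was -0.07 over the members tested and 0.29 over all genes. With the arrays quantile normalized, 8 members were called higher and 12 lower, beside 2881 genes higher and 1919 lower of all 12393. Without arrays M-on 2 and M-on 3 the count was 14, of which 12 were lower, with the lone M-on array assumed to vary like the other groups, and 37.2% of all genes were called. Without M-on 1 and M-on 2, the arrays that went against their label, 7 members were called higher and 12 lower, and 38.2% of all genes were called. Cope, Sec13, Sec24b, Sec31a, Ssr1, Ssr4 and Tmed3 then had no call, and Spcs1, Srp14 and Srpr were called higher.

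The Z and M on-off comparisons share no array. Ssr2, Lman2, Sec31a, Sar1a and Copa were called higher in both. Sec63, Ssr4, Sec11c and Cope were called lower in both. Sec11a, Tmed4, Tmed9, Tmed10 and Lman1 were called higher in the Z line without a call in the M line. Sec24b was called higher, and 13 other members lower, in the M line without a call in the Z line, and 15 members were called in neither. All 3 on arrays lay above all 3 off arrays in both lines for 5 members, against 31.5% of all genes, and below them in both for 7, against 7.45%. Whether a member differs between lines is a separate test, given further on.

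**Figure D1:**
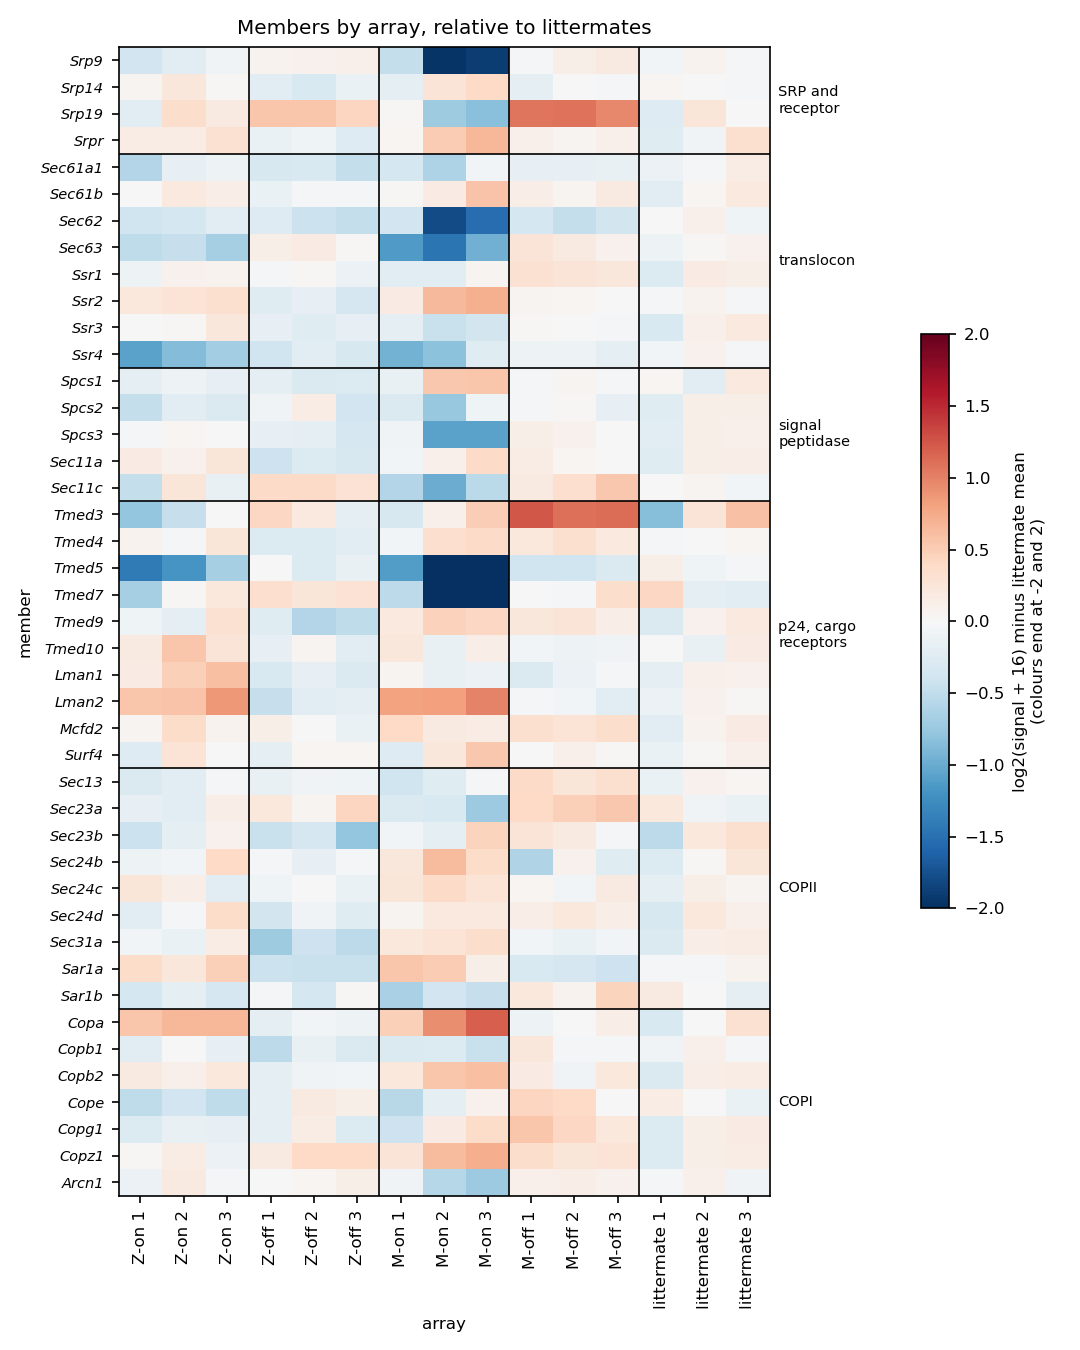
Heat map of the 43 tested members (rows, grouped by role) on the 15 arrays (columns), coloured by log2(signal + 16) minus the mean of the 3 littermate arrays. The deepest blue cells are Tmed5 on M-on 2 and M-on 3, where Tmed7, Srp9 and Sec62 are also blue while M-on 1 is paler.

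Among the 4 measured signal recognition particle and receptor genes, none was called in the Z line and 2 were called lower in the M line. Beside the counts of this and the following roles, 31.6% of all genes were called higher and 7.46% lower in the Z line. In the M line the shares of all genes were 37.9% and 12.4%. Srp19, which binds the particle's RNA and helps assemble it, had signals of 219, 126 and 114 in M-on livers, against 470.0, 475 and 433 in M-off livers. It had 183, 278 and 246 in Z-on livers, against 323, 323 and 296 in Z-off livers. Littermates read 178, 258 and 217. All 3 M-on arrays lay below all 3 M-off arrays, and the 3 Z-on arrays below the 3 Z-off arrays. The change was -1.54 (SE 0.21, adjusted p = 6.03e-05) in the M line and -0.41 without a call in the Z line.

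Srp9, part of the domain that slows elongation, read 494, 166 and 174 in M-on livers, against 683, 753 and 784 in M-off livers. It read 525, 596 and 656 in Z-on livers, against 724, 736 and 740.3 in Z-off livers, and 666, 729 and 679.8 in littermates. M-on 2 and M-on 3 were far below every other array, and M-on 1 was below the lowest Z-on array by a small margin. The change was -1.54 (SE 0.28, adjusted p = 0.000579) in the M line and -0.57 (adjusted p = 0.0172) when M-on 1 was the only M-on array; in the Z line it was -0.31 without a call.

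Srpr, the alpha subunit of the receptor, was called in neither line. It read 1055, 1062 and 1188 in Z-on livers, against 874, 901 and 793 in Z-off livers, and 976, 1369.5 and 1514 in M-on livers, against 1028, 997 and 1026 in M-off livers. Littermates spanned 804 to 1193, so the groups overlapped with them. Its M on-off change of 0.31 was called when array M-on 1 was left out. Srp14, the partner of Srp9, differed by 0.23 in the M line (adjusted p = 0.201), and was likewise called without M-on 1. Its other 3 probe sets read the opposite way, with -0.62, -0.38 and -0.46 in the Z line, all called lower, and -0.41, -0.60 and -0.54 in the M line, of which the last pair were called lower. The direction for Srp14 therefore depends on the probe set.

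Of the 8 measured translocon members, 1 was called higher and 2 lower in the Z line, and 1 higher and 4 lower in the M line. Sec63 anchors the J domain that recruits the chaperone BiP to the channel. Its signals were 325, 334 and 291 in Z-on livers, against 508, 524 and 475 in Z-off livers. In the other line they were 205, 160.1 and 234 in M-on livers, against 562, 533 and 498 in M-off livers. Littermates read 434, 476 and 497, above all 6 on arrays. The change was -0.64 (SE 0.14, adjusted p = 0.00219) in the Z line and -1.36 (SE 0.14, adjusted p = 6.62e-06) in the M line. In the M line the call held with either M-on 1 (-1.31) or M-on 3 (-1.13) as the only M-on array. In the Z line it ended when all probe sets of the gene were averaged.

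Sec62, the partner of Sec63, read 880.3, 321 and 393 in M-on livers, against 906, 827 and 888 in M-off livers. M-on 1 lay among the M-off arrays, and M-on 2 and M-on 3 lay below every other array. The fitted change was -0.84 (adjusted p = 0.0148), and 0.01 with M-on 1 as the only M-on array. On this main probe set the call thus rested on arrays 2 and 3. The Z-line readings were 869, 902 and 986 with the transgene on, against 962, 849.9 and 829 with it off, and the ranges overlapped. A dimmer Sec62 probe set read 540.1, 279.2 and 352.6 in M-on livers, against 706.5, 631.7 and 825.8 in M-off livers. Another read 45.3, 4.0 and 4.4, against 90.8, 80.4 and 77.5. On both, M-on 1 too lay below all M-off arrays. The remaining one overlapped in the M line. The reading of M-on 1 therefore depends on the probe set.

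Members of the TRAP complex, which assists the entry of some signal sequences, did not move together. Ssr2 read 345, 363 and 376 in Z-on livers, against 249.9, 265 and 232 in Z-off livers, and 336, 478 and 498 in M-on livers, against 309, 305 and 300.5 in M-off livers. Every on array exceeded every off array of its line, by a change of 0.51 (SE 0.14, adjusted p = 0.0098) in the Z line and 0.48 (SE 0.14, adjusted p = 0.0105) in the M line. Littermates read 288, 312 and 292.

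Ssr4 moved the other way on its main probe set. It read 914, 1045 and 1178 in Z-on livers, against 1451, 1655 and 1535 in Z-off livers, and 993, 1078 and 1622 in M-on livers, against 1797, 1786 and 1688 in M-off livers. Littermates read 1849, 2050.3 and 1886, higher than all on arrays. The change was -0.56 (SE 0.16, adjusted p = 0.0152) in the Z line and -0.54 (SE 0.16, adjusted p = 0.0143) in the M line. Neither call held after quantile normalization, and the M-line value was -0.11 (adjusted p = 0.632) without M-on 1 and M-on 2. A dim probe set of Ssr4 with a mean signal of 45.3 was called higher in both lines, by 1.23 and 0.89. The remaining one read 127.3, 102.1 and 82.3 in Z-on livers, against 77.6, 69.3 and 59.6 in Z-off livers. Its M-on signals of 69.5, 37.8 and 42.4 lay below the M-off signals of 121.9, 106.9 and 124.9. The direction for this gene therefore depends on the probe set.

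Ssr3 was not called in either line, with changes of opposite array order: its 3 Z-on signals of 1269.6, 1301 and 1499.8 all exceeded the Z-off signals of 1132, 1078 and 1131. Its M-on signals of 1124, 936 and 989 all lay below the M-off signals of 1289, 1280.4 and 1259. Among all genes 0.363% had that pattern, and among members Spcs3 had it too. Ssr1 was called lower in the M line (-0.38, adjusted p = 0.0314), a call that ended without M-on 1, M-on 2 or any M-off array. A dimmer Ssr1 probe set read 190.1, 183.5 and 205.4 in Z-on livers, against 402.1, 462.3 and 474.9 in Z-off livers. Its M-on signals of 190.6, 60.7 and 188.0 lay below the M-off signals of 346.2, 459.9 and 435.9. The dimmest read 79.9, 76.8 and 69.7 in Z-on livers, against 27.9, 26.5 and 22.9 in Z-off livers, and overlapped in the M line. The reading for Ssr1 therefore depends on the probe set.

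The channel itself gave no uniform reading. The main probe set of Sec61a1, the pore-forming subunit, was called in neither line. Of its other probe sets, the 2 with mean signals of 661 and 388 were called higher in both lines, by 0.75 and 0.82 in Z-on against Z-off livers and by 0.81 and 0.86 in M-on against M-off livers. A dimmer probe set was called lower in both, by -0.82 in the Z line and -0.51 in the M line. The dimmest read 100.7, 130.9 and 132.1 in Z-on livers, against 66.0, 34.1 and 39.8 in Z-off livers, and overlapped in the M line. The remaining one overlapped in both lines. Sec61b was called in neither line. The probe set shared by Sec61g with Gm11575 and Gm10177 was called lower in both, by -0.80 (SE 0.14) in the Z line and -0.96 (SE 0.14) in the M line.

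Signal peptidase had 1 member called higher and 1 lower in the Z line, and 2 lower in the M line. Both catalytic subunits were called in the Z line, in opposite directions. Sec11a read 869.8, 827 and 923 in Z-on livers, against 581, 638 and 622 in Z-off livers, a change of 0.50 (SE 0.14, adjusted p = 0.0126) with no overlap. In the M line it read 749, 835 and 1022 with the transgene on, against 859.5, 799 and 774 with it off, and the ranges overlapped. Littermates read 653, 846 and 851.

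Sec11c read 237, 399.9 and 299 in Z-on livers, against 441, 440.3 and 411 in Z-off livers. Its M-on signals were 216, 160.3 and 225, against 382, 424 and 496 in M-off livers, and littermates read 332, 349 and 323. All on arrays lay below all off arrays of their line, and the M-on arrays lay below the littermates too. The change was -1.06 (SE 0.18, adjusted p = 0.000256) in the M line. In the Z line it was -0.47 (SE 0.18, adjusted p = 0.0458), a call that ended without Z-on 1, Z-on 3 or any of the 3 Z-off arrays.

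The accessory subunit Spcs3 read 510.2, 246 and 248 in M-on livers, against 581, 572 and 536 in M-off livers. Z-on livers gave 521, 549.9 and 532, against 479, 475 and 424 in Z-off livers. The M-line change was -0.80 (SE 0.21, adjusted p = 0.00665); with M-on 1 as the only M-on array it was -0.14 (adjusted p = 0.559). The accessory subunit Spcs1 read 728, 781 and 745 in Z-on livers, against 726, 684 and 686 in Z-off livers, and 750.0, 1223 and 1241 in M-on livers, against 822, 870.5 and 817 in M-off livers. Its M-on arrays 2 and 3 were the highest of all 15, array 1 was not, and neither line gave a call. Without M-on 1 and M-on 2, Spcs1 was called higher in M-on livers than in M-off livers (0.56, adjusted p = 0.0226) and than in littermates (0.56, adjusted p = 0.0429).

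The p24 and cargo receptor genes held the widest range of changes, from -0.95 to 0.96 in the Z line and from -2.90 to 0.96 in the M line. Of 10 measured, 5 were called higher and none lower in the Z line, and 1 higher and 3 lower in the M line. Lman2, a lectin that cycles between the ER and the Golgi, read 700.4, 713 and 873 in Z-on livers, against 339.5, 402 and 409 in Z-off livers. It read 834, 850.2 and 952 in M-on livers, against 463, 457 and 408 in M-off livers, and 435, 503 and 483 in littermates. All 6 on arrays exceeded all 9 others. The change was 0.96 (SE 0.13, adjusted p = 0.000101) in the Z line and 0.96 (SE 0.13, adjusted p = 5.36e-05) in the M line, which lay 0.71 and 0.67 above the median gene.

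Lman1, known as ERGIC-53, is a mannose lectin that ferries glycoproteins out of the ER and has been described as a receptor for alpha1-antitrypsin. It read 1302, 1621 and 1773 in Z-on livers, against 937, 1036 and 946 in Z-off livers. In the M line the readings were 1208, 1040.2 and 1062 with the transgene on, against 948, 1065 and 1121 with it off. Littermates read 1017, 1242 and 1227. The Z-on arrays were the 3 highest of all 15, and the M-on and M-off ranges overlapped. The change was 0.67 (SE 0.14, adjusted p = 0.00211) in the Z line and 0.08 without a call in the M line. A dimmer Lman1 probe set with a mean signal of 83.6 was called higher in both lines. Its change was 0.82 (adjusted p = 0.000472) in the Z line and 0.97 (adjusted p = 7.93e-05) in the M line, so the M-line reading depends on the probe set. A brighter one read 830.7, 976.8 and 886.7 in Z-on livers, against 554.8, 624.0 and 505.3 in Z-off livers, and overlapped in the M line. The remaining one overlapped in both lines, with 333.8, 317.4 and 375.1 in Z-on livers, against 279.0, 309.9 and 348.7 in Z-off livers. Mcfd2, the partner of Lman1 for clotting factors V and VIII, was called in neither line. It read 1477, 1851 and 1498 in Z-on livers, against 1553, 1432 and 1306 in Z-off livers. Its M-on readings of 1886, 1625 and 1583 overlapped the M-off readings of 1785, 1732 and 1819.

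Tmed10, a p24 protein of the delta family, read 346, 457 and 367 in Z-on livers, against 272, 319 and 258 in Z-off livers, a change of 0.44 (SE 0.15, adjusted p = 0.0292). In M-on livers it read 358, 273 and 336, against 292, 283 and 290.0 in M-off livers, and the ranges overlapped. The brightest of 4 probe sets shared with Tmed10-ps read 685.5, 739.8 and 710.2 in Z-on livers, against 818.2, 837.0 and 747.4 in Z-off livers. Another read 275.9, 287.5 and 209.8, against 340.2, 291.5 and 343.9, and the remaining shared ones overlapped. The direction for Tmed10 in the Z line therefore depends on the probe set. Tmed9 and Tmed4, of the alpha family, were called higher in the Z line by 0.45 (adjusted p = 0.0417) and 0.35 (adjusted p = 0.0482). Each of these 3 calls ended when single arrays were left out: for Tmed10 without Z-on 2, Z-off 1 or Z-off 3, for Tmed9 without Z-on 1, Z-on 3, Z-off 2 or Z-off 3, and for Tmed4 without Z-on 1, Z-on 3 or any Z-off array.

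Tmed3, Tmed5 and Tmed7, p24 genes of the gamma family, were called lower with the M transgene on. Tmed5 read 365, 25.5 and 24.4 in M-on livers, against 609, 606 and 661 in M-off livers. In the Z line it read 293, 347 and 502 with the transgene on, against 809, 664 and 726 with it off, and littermates read 877, 763 and 788. All on arrays were below all off arrays of their line, and M-on 2 and M-on 3 were far below every other array. The change was -2.90 (SE 0.60, adjusted p = 0.00127) in the M line and -0.95 (SE 0.60) without a call in the Z line. The M-line change was -3.32 with a constant of 1 and -2.20 with 64 in place of 16, because the 2 low arrays lie near the constant. With M-on 1 as the only M-on array it was -0.75 (adjusted p = 0.029). A different Tmed5 probe set gave -2.87 (SE 0.49, adjusted p = 0.000394) in the M line.

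Tmed7 read 529, 158 and 181 in M-on livers, against 772, 753 and 985 in M-off livers. Its Z-on signals were 477, 778 and 889.8, against 968, 909.8 and 942 in Z-off livers, and littermates read 1030.5, 669 and 655. M-on 2 and M-on 3 were below every other array, and M-on 1 lay between Z-on 1 and Z-on 2. The M-line change was -1.67 (SE 0.35, adjusted p = 0.00149), and -0.64 with M-on 1 as the only M-on array. A dimmer Tmed7 probe set read 269.0, 296.0 and 274.8 in Z-on livers, against 163.5, 164.3 and 222.1 in Z-off livers. Its M-on signals of 203.3, 84.4 and 86.3 overlapped the M-off signals of 198.4, 226.0 and 224.2. Another overlapped in the Z line, with all M-on arrays below the M-off arrays. The Z-line direction for Tmed7 therefore depends on the probe set. Tmed3 read 171, 235 and 313 in M-on livers, against 535, 484 and 492 in M-off livers, a change of -1.06 (SE 0.32, adjusted p = 0.0143) that lost its call without M-on 1, and was -0.66 (adjusted p = 0.278) without M-on 1 and M-on 2. Its Z-on signals of 120.5, 153 and 218 overlapped the Z-off signals of 294, 250.4 and 189, and littermates ran from 113 to 335. The 6 probe sets shared by Tmed2, the beta family member, with Gm10698 were called lower in both lines, by -0.65 to -1.55 in the Z line and by -1.21 to -2.13 in the M line.

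**Figure D2:**
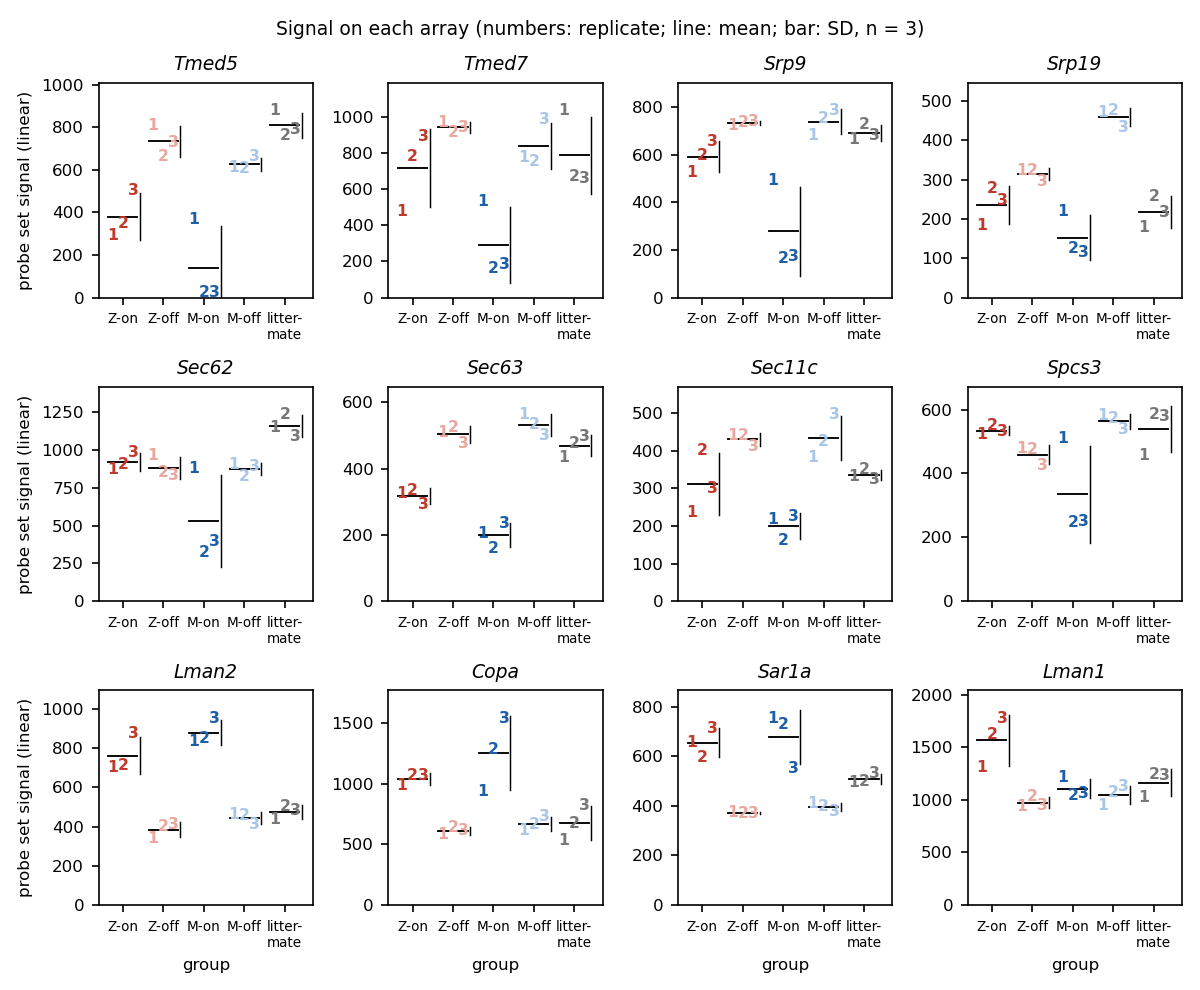
Probe set signal (linear, from 0) of 12 members in the 5 groups; each numeral is 1 array by its replicate number, the horizontal line is the mean and the vertical bar the SD of 3 arrays. Numerals 2 and 3 of M-on lie far below numeral 1 for Tmed5, Tmed7, Srp9 and Sec62, whereas for Lman2 all on arrays lie above the off arrays and littermates.

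In the COPII coat, 2 of 9 measured members were called higher and none lower in the Z line, and 3 higher and 3 lower in the M line. The 2 Sar1 GTPases, which start coat assembly, moved apart. Sar1a read 656, 595 and 712 in Z-on livers, against 374, 368 and 369 in Z-off livers, and 753, 728 and 552 in M-on livers, against 408, 396 and 377 in M-off livers. Littermates read 494, 498 and 531, between the on and the off arrays of both lines. The change was 0.79 (SE 0.13, adjusted p = 0.000369) in the Z line and 0.75 (SE 0.13, adjusted p = 0.000344) in the M line. A dimmer Sar1a probe set, with a mean signal of 284, was called in neither line, with -0.07 in each.

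Sar1b, whose human form is needed to export large lipoproteins, read 1691, 2028 and 1914 in M-on livers, against 3076, 2791 and 3631 in M-off livers. In the Z line it read 2079, 2320.3 and 2100.5 with the transgene on, against 2589.6, 2067 and 2708 with it off, and littermates read 2989, 2662 and 2342. The M-on arrays lay below all other arrays and the Z ranges overlapped. The change was -0.74 (SE 0.15, adjusted p = 0.000984) in the M line and -0.17 without a call in the Z line.

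Sec31a, of the outer coat, read 407, 386 and 475 in Z-on livers, against 253, 316 and 291 in Z-off livers, and 496, 519 and 545 in M-on livers, against 409, 385 and 408 in M-off livers. Each on array exceeded each off array of its line. The change was 0.53 (SE 0.14, adjusted p = 0.00846) in the Z line and 0.36 (SE 0.14, adjusted p = 0.0446) in the M line, where the call ended when any of the 6 arrays was left out. Sec13, the partner of Sec31a in the outer coat, was called lower in the M line by -0.54 (SE 0.13, adjusted p = 0.00291), with 221 to 291 in M-on livers, against 354 to 390.1 in M-off livers. Without M-on 1 and M-on 2 the Sec13 value was -0.34 (adjusted p = 0.109).

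The inner coat protein Sec23a, which activates the Sar1 GTPase, read 398, 397 and 292 in M-on livers, against 650.3, 693 and 722 in M-off livers. Z-on livers read 438, 419 and 542, against 574, 511 and 666 in Z-off livers. Littermates read 574, 466 and 446. The M-on arrays lay below all others, with a change of -0.91 (SE 0.16, adjusted p = 0.000389), and the Z ranges overlapped. Its paralogue Sec23b was called in neither line. Of the 3 measured Sec24 genes, which select cargo, Sec24b was called higher in the M line by 0.66 (SE 0.20, adjusted p = 0.0128), though not without M-on 2 or M-off 1. A dimmer Sec24b probe set read 61.1, 37.3 and 46.1 in Z-on livers, against 15.1, 17.1 and 22.1 in Z-off livers. Its M-on signals of 57.2, 70.6 and 57.0 lay above the M-off signals of 17.2, 8.8 and 14.0. The Z-line reading for Sec24b therefore depends on the probe set. Sec24d was called in neither line, with 423, 480.2 and 638 in Z-on livers, against 377, 467 and 413 in Z-off livers, and 511, 566 and 564 in M-on livers, against 539.9, 569.5 and 540.0 in M-off livers.

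In the COPI coat, 1 of 7 subunits was called higher and 1 lower in the Z line, and 1 higher and 3 lower in the M line. Copa, the alpha subunit, read 980.0, 1064 and 1064 in Z-on livers, against 577, 639.9 and 615 in Z-off livers. It read 935, 1280.2 and 1536 in M-on livers, against 616, 662 and 729 in M-off livers, and 534, 668 and 821 in littermates. All 6 on arrays exceeded all 9 others. The change was 0.75 (SE 0.18, adjusted p = 0.00492) in the Z line and 0.86 (SE 0.18, adjusted p = 0.00137) in the M line. Cope, the epsilon subunit, was called lower by -0.50 in each line, with 554 to 609 in Z-on livers, against 695 to 903 in Z-off livers, and 538 to 846 in M-on livers, against 805 to 1081 in M-off livers. Its calls ended without any of 5 arrays in the Z line (the exception was Z-off 1) and without M-on 1, M-on 2, M-off 1 or M-off 2 in the M line.

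The delta subunit Arcn1 read 622, 434 and 388 in M-on livers, against 701, 722 and 698 in M-off livers, a change of -0.57 (SE 0.15, adjusted p = 0.00718). With M-on 1 as the only M-on array the change was -0.18. A dimmer Arcn1 probe set did not show this fall, with M-on signals of 247.4, 235.1 and 204.4 that overlapped the M-off signals of 198.3, 233.9 and 171.9. It read 231.5, 197.7 and 240.9 in Z-on livers, against 157.7, 170.8 and 185.6 in Z-off livers. The reading for Arcn1 therefore depends on the probe set. The beta subunit Copb1 was called lower in the M line by -0.39 (adjusted p = 0.0231), a call that ended without M-on 3 or M-off 1. Copb2, Copg1 and Copz1 were called in neither line on their main probe sets. A dimmer probe set of Copb2 with a mean signal of 245 was called lower in both, by -0.94 in the Z line and -0.87 in the M line. A dimmer one of Copg1 read 113.5, 132.6 and 184.9 in Z-on livers, against 90.6, 100.3 and 76.5 in Z-off livers, and overlapped in the M line.

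**Figure D3:**
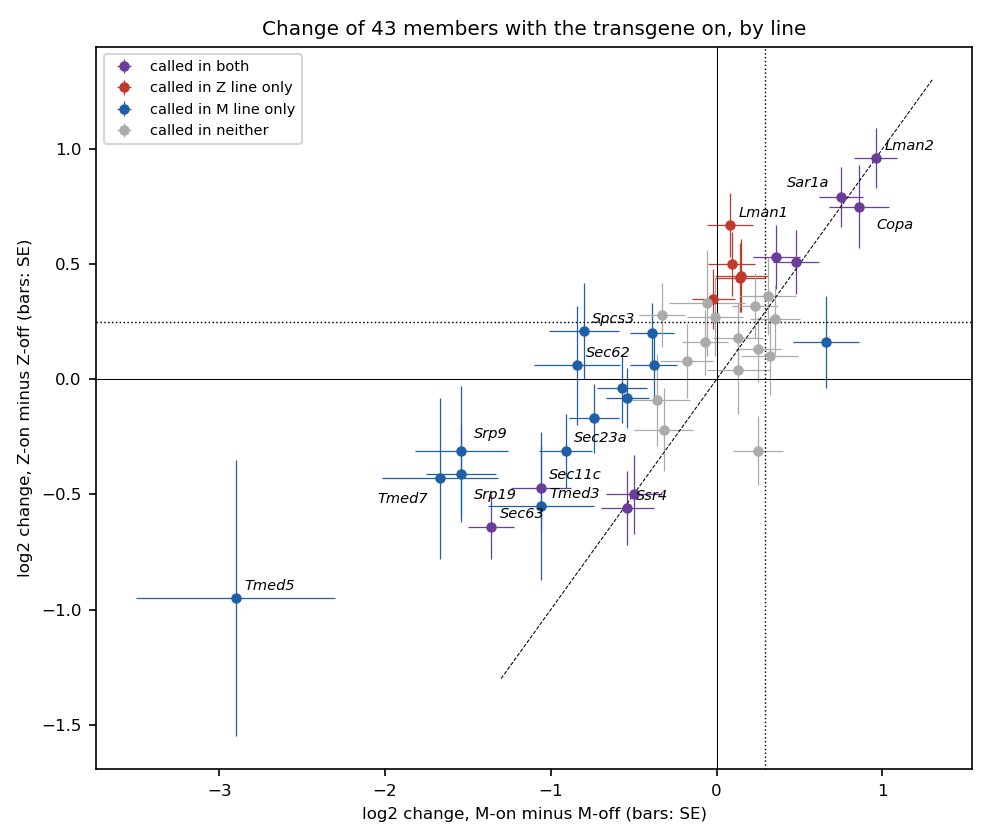
Change in Z-on minus Z-off (vertical) against M-on minus M-off (horizontal), in log2 units with bars of 1 SE, for the 43 members, coloured by where each was called. Dotted lines mark the median of all genes (0.25 and 0.29) and the dashed line equal change; Lman2, Sar1a and Copa lie near it at the upper right, and Tmed5 at -2.90 and -0.95 lies farthest left.

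Promoters were read because XBP1 and ATF6, the transcription factors of the unfolded protein response, act on several genes of this route through short DNA motifs. RefSeq promoter windows (build GRCm38.p6, 250 bases before to 50 after the start) were at hand for 39 members, in 41 windows. On either strand, the letters TGACGTGG, the core of the UPRE, occurred in 4 member windows, those of Sec24d, Copb1, Copb2 and Sec23a, or 9.76%, against 0.676% of 32851 windows. Full matches to the ERSE occurred in none, against 0.119% of all, and to ERSE-II in none, against 0.0365% of all. The related CRE letters TGACGTCA, which share the first 6 bases of the UPRE core, occurred in the window of Cope, or 2.44%, against 1.79% of all. A match is a run of letters and was not tested as a binding site. Of the 4 genes with the UPRE core, none was called in the Z line, and Copb1 and Sec23a were called lower in the M line.

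The 250 bases before the start of 4 members are shown: Lman2 and Tmed5 for the largest called rise and fall, and Sec24d and Copb1 for a UPRE core that lies wholly before the start, in capitals. They lie at chr13:55362784-55363033 (minus strand), chr5:108132621-108132870 (minus strand), chr3:123267246-123267495 (plus strand) and chr7:114254681-114254930 (minus strand), in that order, and each is printed on the gene's strand. The match begins 26 bases before the start in Sec24d, and 28 before it in Copb1, where it is the reverse complement. Their GC shares are 57.6%, 68.4%, 70.4% and 53.6%.
Lman2: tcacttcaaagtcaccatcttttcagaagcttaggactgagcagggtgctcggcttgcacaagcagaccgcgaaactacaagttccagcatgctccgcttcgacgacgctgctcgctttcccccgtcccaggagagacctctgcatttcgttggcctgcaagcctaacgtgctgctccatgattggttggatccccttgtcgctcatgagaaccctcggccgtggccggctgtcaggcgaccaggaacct
Tmed5: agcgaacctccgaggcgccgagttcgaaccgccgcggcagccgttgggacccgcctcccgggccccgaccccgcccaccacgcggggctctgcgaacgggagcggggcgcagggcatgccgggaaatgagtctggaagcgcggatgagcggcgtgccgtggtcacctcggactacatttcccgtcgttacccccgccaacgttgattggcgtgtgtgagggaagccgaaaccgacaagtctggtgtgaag
Sec24d: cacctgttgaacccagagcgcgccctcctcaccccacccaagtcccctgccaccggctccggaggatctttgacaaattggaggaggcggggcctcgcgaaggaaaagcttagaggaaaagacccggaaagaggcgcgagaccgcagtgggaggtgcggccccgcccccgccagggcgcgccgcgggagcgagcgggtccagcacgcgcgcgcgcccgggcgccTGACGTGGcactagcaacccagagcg
Copb1: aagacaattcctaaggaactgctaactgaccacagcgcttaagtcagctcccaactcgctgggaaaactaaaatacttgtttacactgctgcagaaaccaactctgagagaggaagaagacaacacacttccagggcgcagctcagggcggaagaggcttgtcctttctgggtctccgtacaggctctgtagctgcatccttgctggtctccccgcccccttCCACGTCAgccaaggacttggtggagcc

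The question whether the Z line responds differently from the M line was put to each member as a difference of differences, (Z-on minus Z-off) minus (M-on minus M-off). None of the 43 members was called by limma, against 0.613% of all genes, and 17 had an unadjusted p under 0.05, as did 15.2% of all genes. The largest values were 1.95 for Tmed5 (adjusted p = 0.298), 1.24 for Tmed7 (adjusted p = 0.263), 1.23 for Srp9 (adjusted p = 0.174) and 1.14 for Srp19 (adjusted p = 0.101). The median was 0.29 over the members tested and -0.04 over all genes.

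This result depended on array M-on 1. Without it, 9 members were called, 8 higher and 1 lower, and so were 8.31% of all genes, 786 higher and 244 lower: Srp9, Srp19, Sec62, Sec63, Spcs3, Tmed5, Tmed7 and Arcn1 were higher in the Z line's change, and Copz1 lower. Without both M-on 1 and M-on 2, the arrays that went against their male label, 7 members were called, all higher, beside 6.54% of all genes, 665 higher and 146 lower: Tmed5 (3.04, adjusted p = 0.000118), Srp9, Spcs3, Sec62, Srp19, Tmed7 and Arcn1. Without M-on 2 and M-on 3 none was called. Under these last settings the lone M-on array is assumed to vary like the other groups.

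The 3 M-on arrays were therefore each set against the 3 M-off arrays. Of the 43 members, 28 lay below all M-off arrays for array 1, 24 for array 2 and 18 for array 3, against 23.5%, 24.1% and 24.4% of all genes. Members more than 1 log2 unit below the M-off mean numbered 3 for array 1, 9 for array 2 and 8 for array 3, against 3.13%, 6.79% and 7.04% of all genes. On array M-on 1, 4 members lay over 1 log2 unit above the mean of the other 2 M-on arrays, against 5.08% of all genes: Tmed5 by 3.22, Tmed7 by 1.56, Srp9 by 1.46 and Sec62 by 1.27. None lay as far below, against 1.05% of all genes. Sec63, Srp19, Sec11c and Sec23a lay below all M-off arrays on each of the 3 M-on arrays, and each was called whichever single M-on array was left out.

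Compared directly, Z-on livers had 3 members called higher than M-on livers and none lower, against 3.66% and 1.5% of all genes. These were Srp9 (1.22, SE 0.28, adjusted p = 0.0282), Sec63 (0.64, SE 0.14, adjusted p = 0.0224) and Tmed7 (1.41, SE 0.35, adjusted p = 0.0359). All 3 Z-on arrays exceeded all 3 M-on arrays for Srp9 and Sec63, and for Tmed7 they overlapped. Srp9 and Tmed7 lost the call without M-on 2 or M-on 3, and Sec63 without M-on 2; each also lost it without Z-on 2 or Z-on 3, and Srp9 and Sec63 without Z-on 1. Without M-on 1, 11 members were called higher and 3 lower, beside 1132 genes higher and 545 lower of all 12393. Without M-on 1 and M-on 2, Sec63 differed by 0.41 without a call (adjusted p = 0.128).

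Against littermates, 2 members were called higher and 2 lower in Z-on livers, where 7.31% and 4.63% of all genes were. Lman2 (0.66, SE 0.13, adjusted p = 0.00532) and Copa (0.63, SE 0.18, adjusted p = 0.0357) were higher, and Ssr4 (-0.88, SE 0.16, adjusted p = 0.0045) and Sec63 (-0.54, SE 0.14, adjusted p = 0.0194) were lower. The count fell to 2 without Z-on 3 or littermate 2, and Copa's call ended without any Z-on array, littermate 1 or littermate 2. In M-on livers 6 members were called higher and 10 lower than in littermates, against 14.4% and 9.43% of all genes. The extremes were Tmed5 (-3.26, SE 0.60, adjusted p = 0.00227) and Lman2 (0.87, SE 0.13, adjusted p = 0.000718), and Sec63 changed by -1.18 (SE 0.14, adjusted p = 0.000202). That count of 16 was 9 without M-on 2, 10 without M-on 3 and 2 when only the groups compared entered the fit. These comparisons share the littermate arrays.

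With the transgenes off, Z-off and M-off livers differed in no called member, against 0.137% of all genes, while 14 members had an unadjusted p under 0.05, as did 9.42% of all genes. All 3 Z-off arrays lay below all 3 M-off arrays for 23 members, against 8.75% of all genes, and above them for 1, against 10.6%. Against littermates, Z-off livers had none higher and 2 lower, against 4.03% and 20.1% of all genes. These were Sec31a (-0.55, adjusted p = 0.0129) and Sar1a (-0.44, adjusted p = 0.0247); the count ran from 0 to 5 as single arrays were left out. M-off livers had 3 members higher and none lower than littermates, against 3.92% and 22.2% of all genes: Srp19 (1.04, adjusted p = 0.00325), Tmed3 (1.16, adjusted p = 0.0181) and Sec23a (0.47, adjusted p = 0.0436). For Srp19 the difference between M-on livers and littermates was -0.51 without a call, and -0.83 (adjusted p = 0.0274) with M-on 1 and M-on 2 left out. The count of 3 was 1 without M-off 1, where Tmed3 and Sec23a lost the call.

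**Figure D4:**
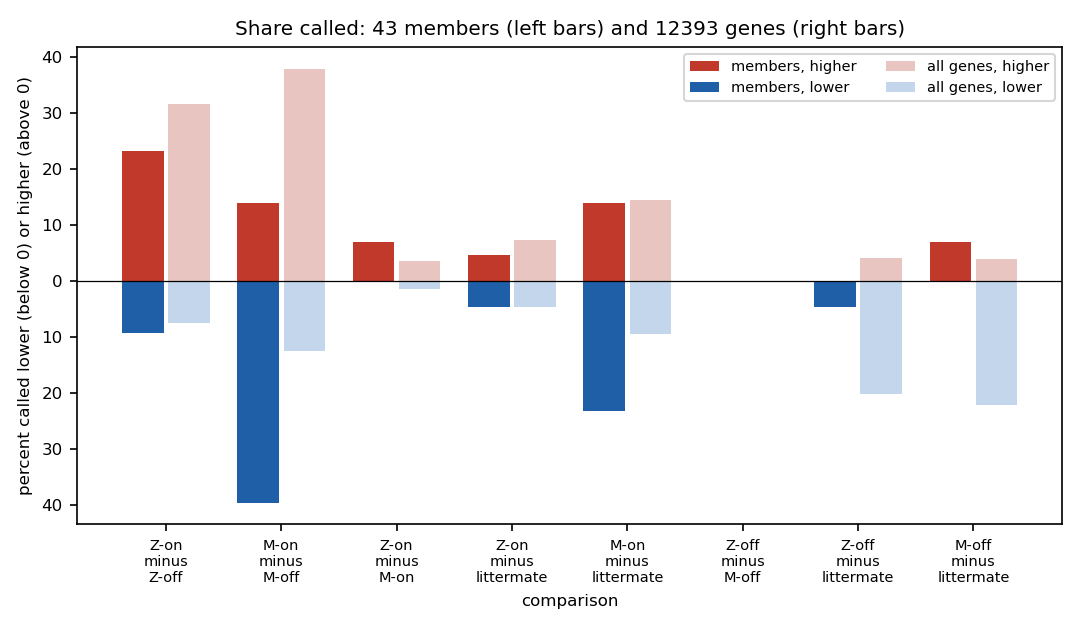
Percent of the 43 members (left bars) and of all 12393 genes (right bars) called higher (above 0) or lower (below 0) in 8 comparisons. In M-on minus M-off the members' lower bar stands above the genes' 12.4% and their higher bar below the genes' 37.9%, and in Z-off minus M-off no member was called.

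Probe sets other than the main ones gave a partial check. The members had 43 further probe sets of their own, of which 10 were called higher and 6 lower in the Z line, against 27.9% and 8.14% of all probe sets. In the M line 7 were called higher and 15 lower, against 33.2% and 13.4% of all probe sets. Ssr4 was the only member with a probe set called opposite to its called main one. That count passes over members without a call on the main probe set, such as Srp14, Sec61a1 and Copb2, which had other probe sets called. The probe sets shared by Srp54a with Srp54b or Srp54c disagreed: the brightest was called higher in the Z line (1.43, SE 0.19) and not called in the M line (0.28), and the next was not called in the Z line (-0.08) and called lower in the M line (-1.67, SE 0.24).

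Neighbouring steps of the route were read from 5 further lists with 95 genes tested. Beside the counts of all 5 lists, 31.6% of all genes were called higher and 7.46% lower in the Z line. In the M line the shares of all genes were 37.9% and 12.4%. Oligosaccharyltransferase, which attaches N-glycans to entering chains, had 2 of 12 genes called higher and 4 lower in the Z line, and 1 higher and 2 lower in the M line. Stt3a, its catalytic subunit for entering chains, changed by -1.09 (SE 0.17, adjusted p = 0.000327) in the Z line and -1.38 (SE 0.17, adjusted p = 3.46e-05) in the M line. Its small subunit Tmem258 changed by 1.20 (SE 0.18) and 0.92 (SE 0.18). Other insertion factors had 2 of 20 genes called higher and none lower in the Z line, and 4 higher and 3 lower in the M line. Emc6, of the ER membrane protein complex, rose by 0.56 in the Z line, and Tram2 by 0.75 in the Z line and 1.09 in the M line. After quantile normalization Tram2 was not called in the Z line (adjusted p = 0.314).

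COPII accessory and other cargo factors had 5 of 19 genes called higher and 1 lower in the Z line, and 3 higher and 2 lower in the M line. Mia3 (TANGO1), which helps load collagen, rose by 0.96 (SE 0.22, adjusted p = 0.00318) in the Z line. Ergic2, a membrane protein of the intermediate compartment, fell by 1.86 on the log2 scale in the M line (SE 0.33, adjusted p = 0.000443) and was 1.82 higher in Z-on than in M-on livers (SE 0.33, adjusted p = 0.0127). The COPI, Arf and retrieval genes had 3 of 14 higher and 4 lower in the Z line, and 3 higher and 3 lower in the M line. Kdelr2, a receptor that returns ER residents from the Golgi, changed by -1.06 (SE 0.13, adjusted p = 5.48e-05) in the Z line and -1.34 (SE 0.13, adjusted p = 5.49e-06) in the M line. Gbf1, the exchange factor that loads Arf for COPI, changed by 0.45 (SE 0.13) in the Z line and 0.74 (SE 0.13) in the M line.

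Tethers and SNAREs of the ER-Golgi step had 5 of 30 genes called higher and 3 lower in the Z line, and 7 higher and 7 lower in the M line. The SNARE Bet1 changed by -1.04 (SE 0.19, adjusted p = 0.000973) in the Z line and -1.85 (SE 0.19, adjusted p = 1.05e-05) in the M line. Scfd1, the SNARE regulator also called Sly1, and the GTPase Rab1a changed by -1.20 (SE 0.18) and -0.90 (SE 0.15) in the M line. Trappc12, a TRAPP tether subunit, was the only gene of the 95 called in the difference between lines (-1.27, SE 0.23, adjusted p = 0.0417). Its signal averaged 17.6 ± 1.53 in Z-on livers, against 46.3 ± 12.9 in Z-off livers, and 72.7 ± 13.3 in M-on livers, against 51.1 ± 8.99 in M-off livers (SD, n = 3 each). The change was -0.87 (SE 0.17, adjusted p = 0.00113) in the Z line and 0.40 without a call in the M line.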

How the data were processed

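Liver total RNA of 15 mice was extracted with TRIZOL and RNeasy, labelled with biotin and hybridised to 1-colour arrays, per the labels' protocols. The deposited values are intensity values on a linear scale, 22690 probe sets an array; RMA is named in the submitters' processing notes without a version, no scaling step is named there, and each array's 2% trimmed mean near 150 is read from the values. Detection calls and probe-level backgrounds were not used here, and the number of arrays limits the precision.

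Probe sets were named from GEO's platform annotation, with symbols checked through RefSeq: 20380 had 1 gene, 691 several and 1555 none. Each of 12393 genes was represented by its probe set with the highest mean log2(value + 16); signals of different probe sets are not compared. Group means of the 15 arrays were fitted with limma 3.58.1 in R 4.3.3 (lmFit, 9 contrasts, eBayes), two-sided, with Benjamini-Hochberg adjustment over all genes in each contrast. Replicates are biological per the labels. Group membership came from the labels alone. In data simulated for Z-on minus Z-off, the fit recovered 20%, 79% and 96% of changes of 0.585, 1 and 2 log2 units. In M-on minus M-off it recovered 16%, 75% and 98%. Each simulation changed 50, 100 and 50 of 12393 genes by these sizes and left 12193 unchanged. In the measured data 39.0% of genes were called in the Z line and 50.3% in the M line. The adjustment depends on the share of changed genes, so these rates do not describe the power of the measured comparisons.

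Members and lists were chosen with earlier results of these data known. Values on every array are given for up to 10 called members with the smallest adjusted p in each on-off comparison and in their difference, up to 4 in each other comparison, the member with the highest mean signal in each role, and for Sec62, Spcs3, Ssr3, Arcn1 and Sec24d, which were added after their values were seen. Listed genes were limited to 4 a list and comparison. Alternatives were constants of 1 and 64, quantile normalization, a filter at the 40th percentile, the mean of all probe sets of a gene, only the groups compared, a replicate block, and leaving out arrays. Promoter sequences come from RefSeq, build GRCm38.p6.

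Summed marker signals beside the hepatocyte and Kupffer sums of the report were, for 4 endothelial genes, 373 to 404 in Z-on and 444 to 521 in M-on livers, against 237 to 272 in Z-off, 234 to 259 in M-off and 319 to 365 in littermate livers. For 5 stellate cell genes they were 668 to 803 and 517 to 850, against 448 to 640.0, 616 to 765 and 562 to 609 in the same order. For 4 biliary genes they were 22.2 to 44.9 and 36.8 to 50.1, against 35.7 to 73.0, 42.0 to 89.4 and 17.7 to 85.1. For 4 blood genes they were 84.0 to 146 and 131 to 141, against 77.0 to 97.7, 71.3 to 104 and 110.0 to 157. For 3 pancreas acinar genes they were 708 to 1397.8 and 395 to 716, against 679 to 1082.1, 925 to 1013.6 and 755 to 843.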

Additional observations from a re-analysis of the deposited data

Results flagged for a closer look

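The on-off change of Trappc12 differed between the lines by the test of the difference itself, by -1.27 log2 units (SE 0.23, adjusted p = 0.0417). It was -0.87 in Z-on against Z-off livers and 0.40 in M-on against M-off livers, and after quantile normalization the difference was -1.33 (adjusted p = 0.0365). The Z-on signals of 16.7 to 19.4 lie near the added constant of 16.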

How the results depend on the processing

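Of 36 changes of members named by the rule, 434 values under the alternatives kept direction and side of the threshold, 67 lost the call and 1 reversed: the Z on-off change of Ssr4, 0.38 (adjusted p = 0.0128) with the mean of all its probe sets. The number of members called in M-on minus M-off, 23, was 14 without arrays M-on 2 and 3. In the difference between lines it was 0, and 7 without M-on 1 and 2. In Z-on minus M-on it was 3, against 0 with a constant of 1, 5 with 64, 5 after quantile normalization, 9 above the 40th percentile, 0 with only the groups compared, 10 without M-on 1 and 2, and 0 without M-on 2 and 3. In M-on minus littermate it was 16, against 2 with only the groups compared and 5 without M-on 2 and 3. In Z-off minus littermate it was 2, against 5 with the mean of all probe sets and 1 with only the groups compared. In M-off minus littermate it was 3, against 5 with a constant of 64 and 1 after quantile normalization. Leaving out 1 array at a time gave 9 to 12 calls for the Z on-off change (14 with all arrays), 17 to 24 for the M on-off change, 0 to 9 in the difference between lines, 0 to 14 in Z-on minus M-on, 2 to 4 in Z-on minus littermate, 9 to 19 in M-on minus littermate, 0 in Z-off minus M-off, 0 to 5 in Z-off minus littermate and 1 to 2 in M-off minus littermate. Causes were not tested beyond what the settings themselves change.

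Replicate numbers are not stated to pair the animals. Same-numbered arrays of different groups correlated at -0.173 to 0.066 over 30 pairs in their deviations from the group means, and other arrays at -0.111 to 0.163. With 3 arrays a group, these correlations do not settle whether animals were paired. With a replicate block, 11 members were called for the Z on-off change, 23 for the M on-off change, 0 in the difference between lines, 2 in Z-on minus M-on, 4 in Z-on minus littermate, 14 in M-on minus littermate, 0 in Z-off minus M-off, 2 in Z-off minus littermate and 2 in M-off minus littermate. Signals near the added constant, as Tmed5 on 2 M-on arrays, carry a size that depends on it.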
